A study of Mus musculus with 12 samples.

Results

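The comparison set pachytene spermatocytes of PWD males against pachytene spermatocytes of B6 males, with 2 arrays a side, 4 of the 12 arrays of the study. Its members were chosen by strain and cell type alone, as given in the sample labels. PWD/Ph (PWD) is an inbred strain derived from wild *Mus musculus musculus*, and C57BL/6J (B6) is a laboratory strain mainly of *Mus musculus domesticus* origin. The labels give testes of males aged 8 to 10 weeks, cells isolated by FACS and 15 to 40 ng of total RNA for biotin-labelled cRNA, with no treatment. The study's methods describe this gate as mid to late pachytene together with diplotene cells, so each array averaged over both stages. The other 8 arrays held prepachytene spermatocytes and spermatids of both strains, and duplicates of every population came from 2 animals, so that populations of a strain may share their animals. Values were log2 expression of probesets, each a set of short probes that may match more than 1 transcript. In the annotation, 932 probesets named several genes.

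In pachytene the homologous chromosomes are held together by the synaptonemal complex, double-strand breaks are repaired by recombination, and the X and Y chromosomes are silenced in the sex body. The same cells start a large transcription programme under the factor A-MYB, which includes the genes of the pachytene piRNA pathway and many genes of the later sperm. PWD and B6 are known for male sterility of their hybrids, in which pachytene synapsis fails, but the arrays here came from the pure strains.

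The cell type label was checked against marker genes. The mean log2 level of 18 pachytene and diplotene markers was 13.25 and 13.33 on the PWD arrays and 12.90 and 12.70 on the B6 arrays, and 17 of the 18 were above the background level on each array. In prepachytene cells this mean was 10.34 and 10.22 in PWD and 10.25 and 10.14 in B6. In spermatids it was 12.36 and 12.71 in PWD and 12.47 and 12.42 in B6. These markers thus set pachytene cells apart from prepachytene cells but hardly from spermatids. This background level, 5.97 on the log2 scale, was taken from 57 probesets of genes of other organs. All 5 measured Leydig cell genes were below it on each array, and 1 of 12 spermatogonial genes was above it on each array. Of 14 Sertoli cell genes, 4 were above it on PWD replicate 1 and 3 on each of the other 3 arrays. Among 14 genes of peritubular, endothelial and blood cells, 2 were above it on each PWD array and 1 on each B6 array. The 27 spermatid genes were all above it on every array, with mean levels of 10.21 and 9.38 in PWD and 9.73 and 9.64 in B6. On the spermatid arrays their means were 12.65 and 13.13 in PWD and 13.47 and 13.48 in B6. PWD replicate 1 exceeded replicate 2 at 23 of these 27 genes, by a median of 0.89, whereas the corresponding median between the B6 replicates was 0.13. Its part in the strain differences was not tested. List counts without this array, and without PWD replicate 2, are given below for most lists where either moves a count by over 1.5 times. List counts without a B6 array are not given. Replicates correlated at r = 0.992 in PWD and 0.996 in B6 over all probesets.

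Genes above the background level were on balance brighter in PWD, by a median log2 difference of 0.41 over 8259 genes, each taken by its brightest probeset. When the 12 arrays were quantile normalized again this median became 0.06, and when each array was centred on its bright probesets it became 0.07. As deposited, limma (adjusted p under 0.05) called 1953 of these genes higher in PWD (23.6%) and 659 lower (7.98%). Renormalization gave 999 higher and 921 lower, so that the share of calls that were higher moved from 74.8% to 52.0%. Centring gave 1335 higher and 1187 lower. The number higher was 1102 without PWD replicate 2 and 830 without B6 replicate 2, and without B6 replicate 2 the number lower was 438. In all 3 scalings, 955 genes were called higher (11.6%) and 631 lower (7.64%). Over all 45037 probesets, 3890 were called higher (8.64%) and 1886 lower (4.19%). Of 31060 probesets below the background level in both strains, 1433 were called, and their differences are not described further.

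Large differences hardly depended on the scaling, which follows from their size. The other scalings moved the median of genes above the background level only from 0.41 to 0.06 or 0.07. A log2 difference above 2 was called for 334 genes higher in PWD, 329 of them in all 3 scalings, and for 341 genes lower, 337 of them in all 3. Beyond a difference of 4 the calls were 80 higher and 110 lower, and beyond 5 they were 39 higher and 54 lower, each of them called in all 3 scalings. Above the background level in PWD only were 265 genes, of which 217 were called, and in B6 only 304 genes, of which 261 were called.

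The probesets with the largest differences were close to 2 states, bright in both arrays of one strain and below the background level in both arrays of the other. *Pdxdc1*, which encodes a protein with a pyridoxal-dependent decarboxylase domain, read 13.03 and 13.01 in PWD and 2.60 and 2.61 in B6. Since B6 was below the background level the fold is a bound, at least 132-fold higher in PWD (limma, adjusted p = 1.9e-07). Another probeset of *Pdxdc1* went the other way, with 8.14 and 8.25 in PWD and 10.93 and 11.04 in B6, a log2 difference of -2.79 (limma, adjusted p = 1.1e-04). A further probeset differed by -2.01 and was called, and one differed by -1.20 and was not. The probesets were designed on a sequence close to that of B6, and the part of probe and transcript differences in such opposed readings was not tested.

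The other genes of this group were led by *Stac*, an adaptor protein of calcium channels, with 13.04 and 13.23 in PWD and 3.37 and 3.44 in B6, at least 143-fold higher in PWD (limma, adjusted p = 2.6e-07). *Tpm4*, a tropomyosin of the actin cytoskeleton, read 12.81 and 12.82 against 3.16 and 3.18, at least 115-fold higher in PWD. *Scarb2*, a lysosomal membrane protein, read 12.35 and 11.94 against 2.71 and 2.65, at least 72.3-fold higher. These genes were picked for a large difference without overlap between the strains, so the gap between their arrays is part of that choice. The mitochondrial 3-hydroxybutyrate dehydrogenase *Bdh1* read 11.19 and 11.37 in PWD and 4.07 and 3.43 in B6, and its second probeset above the background level differed by 5.14 in the same direction. *Msrb2*, a mitochondrial methionine sulfoxide reductase, read 9.62 and 10.18 against 2.41 and 2.39. *Erbb3*, a receptor tyrosine kinase of neuregulins, read 11.27 and 11.40 against 3.04 and 2.97, at least 41.2-fold higher. The remaining 5 of the 12 most raised probesets belonged to the heme-binding protein gene *Hebp2*, the nucleoside transporter *Slc28a3*, the phosphatase *Ppm1m*, the potassium channel subunit *Kcnab1* and *Ano4* of the anoctamin family. Their log2 differences were between 6.84 for *Ano4* and 8.93 for *Hebp2*, with B6 below the background level in each.

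**Figure D1:**
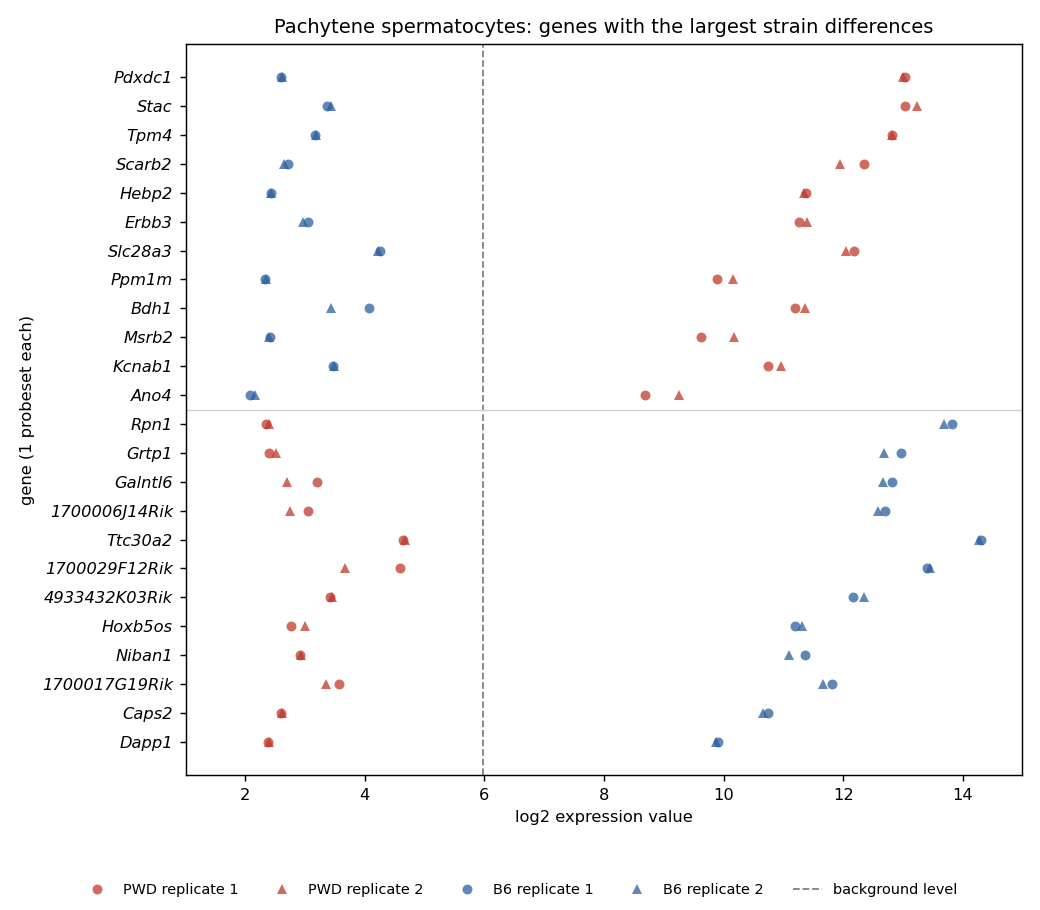
Log2 expression values on the 4 pachytene arrays (horizontal axis) for the 12 probesets most raised and the 12 most lowered in PWD, with 1 gene a row, circles for replicate 1, triangles for replicate 2 and a dashed line at the background level of 5.97. In every row both arrays of one strain lie above the line and both arrays of the other lie below it.

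At the other end, *Rpn1*, a subunit of the oligosaccharyltransferase of the endoplasmic reticulum, had the lowest probeset, with 2.34 and 2.39 in PWD and 13.82 and 13.69 in B6. That probeset was at least 220-fold lower in PWD (limma, adjusted p = 8.2e-05), and 2 further probesets of *Rpn1* differed by -10.17 and -10.61. However, the remaining 2 probesets of *Rpn1* read 11.86 and 12.29 against 11.93 and 11.99, and 11.98 and 12.17 against 11.59 and 11.57, with differences of 0.11 and 0.49 that were not called (limma, adjusted p = 0.652 and 0.0587). Within 1 gene the strains thus overlapped or nearly met at some probesets and were far apart at others.

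Genes whose further probesets fell together included *Grtp1*, which encodes a TBC domain protein, with 2.40 and 2.51 in PWD and 12.97 and 12.69 in B6, at least 116-fold lower in PWD (limma, adjusted p = 3.6e-07). Its second probeset differed by -6.72. *Ttc30a2*, of a gene family for intraflagellar transport with near-identical copies, read 4.63 and 4.67 against 14.30 and 14.27, at least 318-fold lower, and its second probeset differed by -9.21. Signal from copies of this family cannot be told apart by these probesets. *Galntl6*, a member of the polypeptide N-acetylgalactosaminyltransferase family, read 3.19 and 2.70 against 12.82 and 12.67, and its second probeset differed by -4.85. *Niban1*, a stress response gene, read 2.92 and 2.93 against 11.36 and 11.09 and differed by -4.41 at its second probeset. The adaptor of phosphoinositide signalling *Dapp1* read 2.37 and 2.39 against 9.90 and 9.88, and 3.21 and 3.23 against 9.71 and 9.48 at its second probeset. *Caps2*, a calcyphosine gene, had opposed probesets, one with a difference of -8.10 and one of 2.08, both called. The remaining 5 of the 12 most lowered were *Hoxb5os* and 4 testis transcripts with clone names (*1700006J14Rik*, *1700029F12Rik*, *4933432K03Rik* and *1700017G19Rik*), with differences from -8.28 to -9.75.

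Agreement between the probesets of a gene was counted over all called genes with at least 2 probesets above the background level. Of 828 such genes called higher by their brightest probeset, 351 (42.4%) had another probeset called in the same direction, 403 (48.7%) had none called and 74 (8.94%) had one called in the opposite direction. Of 179 such genes called lower, 98 (54.7%) had another called in the same direction, 65 (36.3%) had none and 16 (8.94%) had one called in the opposite direction.

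Meiotic genes differed by smaller amounts, and they are given beside the median of 0.41 over all genes. List counts from here on stand beside shares over all genes of 23.6% called higher and 7.98% called lower. In all 3 scalings those shares were 11.6% and 7.64%. In the list of the piRNA pathway, which silences transposons and processes transcripts in male germ cells, 8 of the 20 genes above the background level were called higher in PWD and 0 lower, with a median difference of 0.74. Calls in all 3 scalings numbered 3 of the 20, beside 11.6% of all genes, and renormalization left 3 higher and 0 lower with a median of 0.50. Without PWD replicate 2 the list had 3 called higher, and without PWD replicate 1 it had 8. Called genes numbered 11 when a gene's bright probesets were averaged. By their brightest probesets, the 8 genes were *Mybl1*, *Tdrd5*, *Pld6*, *Tdrd1*, *Tdrd12*, *Gpat2*, *Mov10l1* and *Ddx4*.

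*Mybl1* encodes A-MYB, the transcription factor of the pachytene programme, and read 13.24 and 13.37 in PWD and 10.85 and 10.42 in B6. It was 6.36-fold higher in PWD, a log2 difference of 2.67 with a standard error of 0.30 (limma, adjusted p = 9.5e-04), and its second probeset differed by 1.71. Both PWD arrays were above both B6 arrays at each probeset. *Tdrd5*, a Tudor domain protein of the germ granule, read 11.64 and 12.16 against 9.91 and 9.68, 4.31-fold higher in PWD (limma, adjusted p = 0.00427). *Tdrd1*, which binds PIWI proteins, read 8.92 and 8.68 against 7.59 and 7.46, 2.42-fold higher (limma, adjusted p = 0.00384). Both Tudor genes were called in all 3 scalings. *Pld6*, the mitochondrial endonuclease of piRNA biogenesis, read 12.22 and 12.55 against 11.00 and 10.69, but its call was lost after renormalization.

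The 250 bases before a start site listed for *Tdrd5* and for *Hormad1*, a gene of the chromosome axis described next, are shown because both genes were called higher in all 3 scalings and lie in lists with several raised members. They come from RefSeq on GRCm38.p6, at chr1:156303349-156303598 on the minus strand and chr3:95559427-95559676 on the plus strand, in the 5′ to 3′ direction of the gene, and the sequence is that of the reference strain. The *Tdrd5* window lies within the gene's full span, since other transcripts of *Tdrd5* start further upstream. The letters CAGTTG, a form of the MYB site, were searched on both strands (CAACTG on the other), a pattern that is also a form of the E-box CANNTG. Capitals would mark a match to these letters, and neither window has one. Other forms of the MYB site were not searched, so the lack of a match does not show that such a site is absent.
Tdrd5: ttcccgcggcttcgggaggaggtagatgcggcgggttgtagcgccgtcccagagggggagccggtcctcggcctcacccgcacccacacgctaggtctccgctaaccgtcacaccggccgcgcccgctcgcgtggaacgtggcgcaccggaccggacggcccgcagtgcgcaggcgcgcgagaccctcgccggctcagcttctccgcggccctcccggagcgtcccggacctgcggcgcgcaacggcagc
Hormad1: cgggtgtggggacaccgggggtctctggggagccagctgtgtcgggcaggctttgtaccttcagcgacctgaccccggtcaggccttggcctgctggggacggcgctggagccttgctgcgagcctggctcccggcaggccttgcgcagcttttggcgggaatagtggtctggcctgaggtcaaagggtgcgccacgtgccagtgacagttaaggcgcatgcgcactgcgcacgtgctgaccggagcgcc
Over the first start site of each gene, this pattern was found before 2995 of 27025 genes (11.1%) and before 600 of the 6776 genes above the background level that have a promoter in the table (8.85%). It was found before 64 of 759 genes higher in PWD in all 3 scalings (8.43%), 52 of 504 lower (10.3%) and 0 of the 7 raised piRNA genes with a promoter in the table. *Mybl1* and *Meiob* were not in the table.

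Of the 12 genes of the chromosome axis and synaptonemal complex above the background level, 7 were called higher in PWD and 0 lower, with a median of 0.75. Over all genes 23.6% were called higher and 7.98% lower. In all 3 scalings 3 were called higher, and renormalization gave 3 higher and 1 lower with a median of 0.35. Without PWD replicate 1 the list had 4 higher and 1 lower, and without PWD replicate 2 it had 4 higher and 0 lower. *Hormad1*, a HORMA domain protein of unsynapsed axes, read 11.46 and 11.65 in PWD and 10.13 and 9.78 in B6, 3.03-fold higher in PWD (limma, adjusted p = 4.9e-04). *Sycp3*, a core component of the lateral element, read 14.63 and 14.84 against 13.81 and 13.48, 2.13-fold higher (limma, adjusted p = 0.00441). *4930447C04Rik*, the gene of SIX6OS1 in the central element, read 7.32 and 8.14 against 5.87 and 4.79, at least 3.39-fold higher since B6 lay below the background level. These 3 genes were the ones called in all 3 scalings. The others called were *Sycp2*, *Smc1b*, *Syce2* and *Stag3*, with differences between 0.73 and 0.82 that were not called in all 3 scalings.

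Genes for double-strand breaks and strand exchange had 1 called higher and 3 lower of 8 above the background level and a median of -0.31, all 4 in all 3 scalings. *Psmc3ip*, which encodes HOP2, an accessory factor of meiotic strand exchange, read 11.35 and 12.23 in PWD and 14.79 and 14.81 in B6, 8.05-fold lower in PWD (limma, adjusted p = 8.6e-04). Its second probeset read 9.96 and 10.33 against 10.88 and 10.92, a difference of -0.76 that was not called. *Ankrd31*, a regulator of where breaks form, read 3.83 and 3.03 against 6.41 and 5.92, at least 1.15-fold lower. The B6 level of *Ankrd31* was itself close to the background level. *Rpa1*, a subunit of the single-strand binding complex, differed by -0.73. *Meiob*, which binds single-stranded DNA with RPA, was 4.24-fold higher, with 8.59 and 8.80 against 6.89 and 6.34. *Prdm9*, the histone methyltransferase that directs hotspots and is a hybrid sterility gene of these strains, was below the background level on all 4 arrays, with 2.90 and 2.75 against 2.49 and 2.86.

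Crossover and mismatch repair genes had 1 called of 8 above the background level, *Msh3*, and a median of 0.16, and this call was lost when either PWD array was left out. Without PWD replicate 1 the list had 1 called higher and 0 lower. Renormalization turned the median to -0.21. *Msh3*, a mismatch recognition protein, had opposed probesets, one lower by 0.75 and one higher by 1.93, both called. Silencing of unsynapsed chromatin had 3 called higher and 1 lower of 13, which became 3 and 2 without PWD replicate 1, 1 and 1 without PWD replicate 2, and 1 and 1 after renormalization. *Cbx1*, which encodes heterochromatin protein HP1-beta, was 2.62-fold higher in PWD with 11.13 and 11.81 against 10.18 and 9.99, and 3 of its 4 further probesets were called higher. *Mdc1*, which spreads the DNA damage signal over the sex chromosomes, and the histone methyltransferase *Ehmt2* differed by 0.90 and 0.82, neither in all 3 scalings. *Brca1*, with a difference of -1.14, was also not called in all 3. The candidates of the autosomal sterility loci had 3 called higher (*Hormad1*, *Ddx4* and *Smc4*) and 1 lower (*Msh3*) of 11, and that list was chosen by the study with these strains in view. The counts were 1 and 0 without PWD replicate 1, 1 and 1 without PWD replicate 2, and 1 and 2 after renormalization, which turned the median from 0.21 to -0.12.

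**Figure D2:**
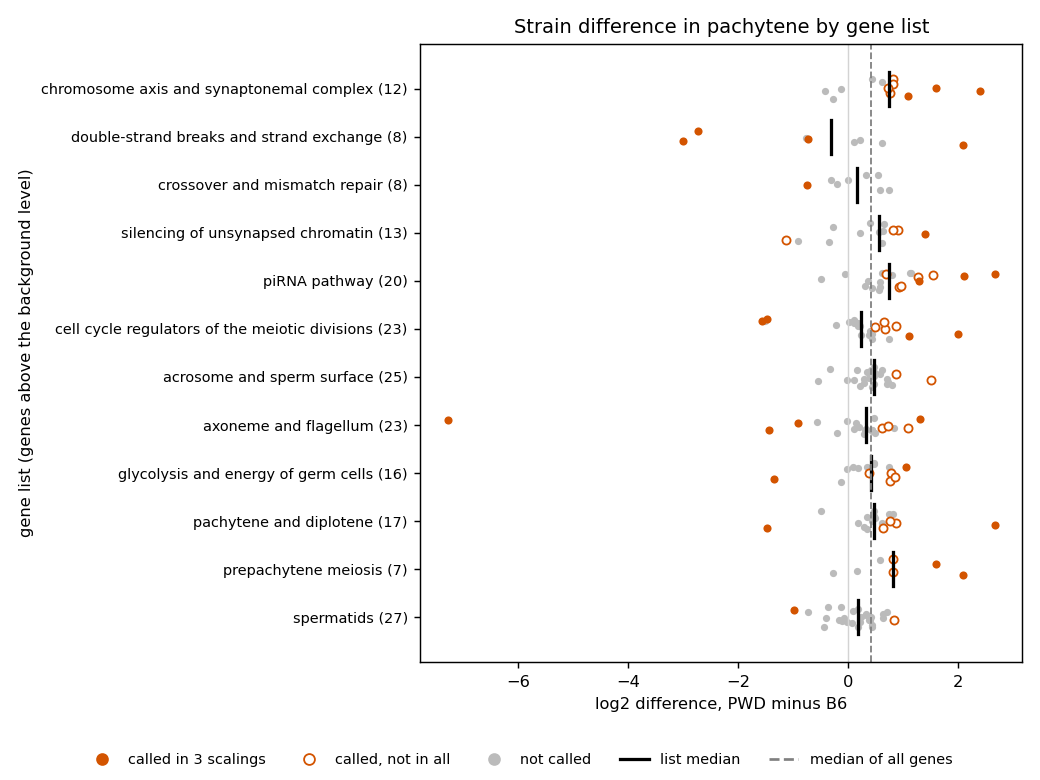
Log2 difference of PWD minus B6 in pachytene (horizontal axis) for the genes above the background level in 12 lists, with filled points for genes called in 3 scalings, open points for other calls and grey points for genes not called. Black bars are list medians, from -0.31 for double-strand breaks to 0.81 for prepachytene meiosis, and the dashed line is the median of all genes, 0.41.

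Regulators of the meiotic divisions had 6 genes called higher and 2 lower of 23, with a median of 0.23, where 23.6% and 7.98% of all genes were called. The counts were 2 and 1 without PWD replicate 1, 3 and 1 without PWD replicate 2, and 2 and 2 after renormalization, which turned the median to -0.20. *Cdc25c*, the phosphatase that activates CDK1, read 9.53 and 8.86 in PWD and 7.47 and 6.96 in B6, 3.96-fold higher, and the checkpoint kinase gene *Bub1* was 2.14-fold higher. *Aurkc*, the Aurora kinase of germ cells, read 10.84 and 10.70 against 12.36 and 12.13, 2.78-fold lower in PWD (limma, adjusted p = 0.00408). *Mad2l1*, of the spindle checkpoint, was 2.98-fold lower, with 8.48 and 8.55 against 10.46 and 9.72. These 4 genes were called in all 3 scalings.

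Among genes of the axoneme and flagellum, 4 of 23 were called higher and 3 lower, against 1 higher and 5 lower after renormalization, with a median of 0.33 that became -0.06. Without PWD replicate 1 the counts were 4 and 2, and without PWD replicate 2 they were 2 and 3. *Tekt5*, a tektin filament protein of the sperm tail, read 3.02 and 2.62 in PWD and 10.15 and 10.04 in B6, at least 17.5-fold lower in PWD (limma, adjusted p = 4.9e-07). *Dnaic2*, a dynein intermediate chain, was 2.71-fold lower and *Gas8*, of the dynein regulatory complex, differed by -0.92. *Dnali1*, a light intermediate chain, was 2.47-fold higher, but its second probeset differed by -0.30 and was not called. *Hydin*, of the central pair, differed by 1.09 and lost its call after renormalization. Acrosome and sperm surface genes had 2 called of 25, *Gopc* and *Spata16*, neither in all 3 scalings, and the median was 0.46. Without PWD replicate 1 that list had 1 called higher. Spermatid genes had 1 higher (*Prm1*, 0.83, not in all 3 scalings) and 1 lower (*Akap3*, -0.99) of 27. Without PWD replicate 1, the array with more spermatid signal, that list had 1 higher and 3 lower with a median of -0.32, and without replicate 2 it had 1 higher and 0 lower with a median of 0.61.

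Energy genes had 5 called higher and 1 lower of 16, where 23.6% and 7.98% of all genes were called. Their median was 0.42, near the 0.41 of all genes. The counts were 2 and 1 when either PWD array was left out, and 1 and 1 after renormalization, with a median of 0.04. *Tpi1*, triosephosphate isomerase, read 11.92 and 11.92 in PWD and 13.40 and 13.13 in B6, 2.54-fold lower in PWD (limma, adjusted p = 0.00106), and both of its further probesets were called lower. *Slc25a31*, the ADP/ATP carrier of male germ cells, was 2.06-fold higher. *Nnt*, the transhydrogenase whose B6 allele is known to carry a deletion, read 12.03 and 12.14 against 11.28 and 11.18, a difference of 0.85 that lost its call after renormalization, and its second probeset differed by 1.58. Of 10 glutathione genes 2 were called higher (1 when either PWD array was left out), led by *Gstz1* at 2.89-fold with 9.41 and 9.59 against 7.99 and 7.95.

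Of 4 antigen presentation genes above the background level, 1 was called: *Tap1*, a peptide transporter subunit, read 5.84 and 6.40 in PWD and 2.68 and 2.55 in B6. Interferon-inducible genes had 2 called lower and 0 higher of 4, and 1 lower when either PWD array was left out. *Ddx58*, the RNA sensor RIG-I, read 2.20 and 2.23 against 6.85 and 6.76, at least 1.78-fold lower in PWD (limma, adjusted p = 7.8e-08), and *Ifi27* differed by -1.27. In both other populations *Ddx58* read 2.10 to 2.29, far below the background level. The spread behind its p-value thus came mostly from arrays without clear signal. Few genes of either list were bright enough to measure. Zinc finger genes named Zfp were 31 higher and 15 lower of 148 above the background level, and 17 higher and 15 lower in all 3 scalings. Over all genes the shares were 23.6% and 7.98%, and 11.6% and 7.64% in all 3 scalings, so the count of the family was near the background. Without PWD replicate 2 it was 16 higher and 15 lower. *Zfp935* read 9.78 and 9.59 against 3.92 and 3.67, at least 13.1-fold higher in PWD, and *Zfp979* read 3.60 and 3.71 against 9.30 and 8.96, at least 8.93-fold lower. Genes of this family share sequence, and their probesets may measure more than 1 member.

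Pachytene and diplotene markers had 4 called higher and 1 lower of 17 (1 and 1 without PWD replicate 2), with *Mybl1* and *Aurkc* the 2 called in all 3 scalings. Prepachytene markers had 4 called higher and 0 lower of 7 (3 and 1 without PWD replicate 1), among them *Meiob* and *Hormad1*, which are also in the lists above, and the mean level of 13 measured was 7.24 and 6.95 in PWD and 6.56 and 6.31 in B6. Whether this reflects the gate or the level per cell was not tested, and in bulk samples the number of cells of a type and the RNA per cell cannot be told apart. Somatic markers had 3 called above the background level, 1 without PWD replicate 1 and 2 without PWD replicate 2. *Ctsl*, a lysosomal protease also used by Sertoli cells, differed by 0.85 and not in all 3 scalings. *Vwf*, of endothelium, read 7.16 and 6.71 in PWD and 5.15 and 4.67 in B6, and *Acta2*, of smooth muscle, read 4.96 and 5.27 against 6.55 and 7.64.

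By chromosome, autosomes had 20.9% to 29.9% of their genes above the background level called higher and 5.51% to 12.7% called lower, the latter highest on chromosome 13. These are calls as deposited. Renormalization left fewer higher and more lower on every autosome, with counts of 31 to 83 higher and 27 to 81 lower. Of 617 X-linked genes 64 were above the background level in pachytene, where the X is silenced, and 2 of these (3.12%) were called higher and 3 (4.69%) lower, with a median of 0.22. After renormalization the 64 genes gave 1 higher and 3 lower. Without PWD replicate 1 the 64 genes gave 2 higher and 7 lower with a median of -0.43, and without PWD replicate 2 they gave 10 higher and 3 lower with a median of 0.88. *Ndufa1*, a subunit of mitochondrial complex I, read 7.50 and 7.66 in PWD and 10.73 and 10.87 in B6, 9.30-fold lower in PWD (limma, adjusted p = 4.4e-05). *Pgk1*, the X-linked phosphoglycerate kinase, read 5.19 and 3.81 against 7.29 and 6.98, and both of its further probesets were called lower. *Erdr1*, of the pseudoautosomal region, read 9.34 and 9.95 against 5.12 and 3.82, at least 12.8-fold higher in PWD. Of 9 Y-linked genes 3 were above the background level and 0 were called.

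**Figure D3:**
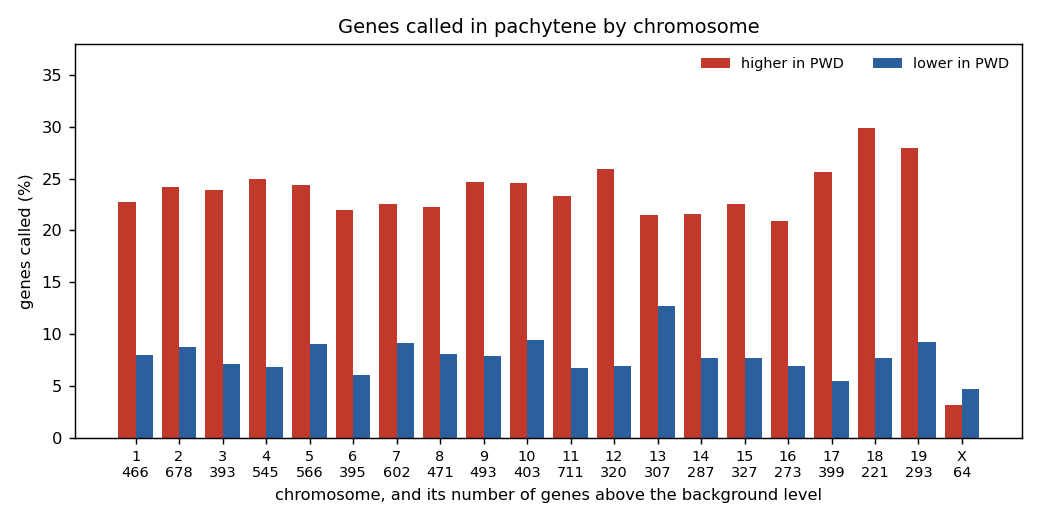
Percent of genes above the background level called higher (red) and lower (blue) in PWD pachytene, by chromosome, with the number of such genes under each name. Calls are those of the values as deposited, before renormalization. Bars on the autosomes run from 20.9% to 29.9% and from 5.51% to 12.7%, and on the X they stand at 3.12% and 4.69% of 64 genes.

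The strain differences were set against those of the other 2 populations, whose arrays did not enter the pachytene difference itself, although the spread behind its test was pooled over all 12 arrays. For the 8259 genes, limma called 2057 higher (24.9%) and 716 lower (8.67%) in PWD prepachytene cells, and 1377 higher (16.7%) and 811 lower (9.82%) in PWD spermatids. Of the 1953 genes higher in pachytene, 816 (41.8%) were also higher in prepachytene cells, where they were 39.7% of the calls, and 992 (50.8%) were also higher in spermatids, 72.0% of the calls there. Of the 659 lower genes, 236 (35.8%) were also lower in prepachytene cells, 33.0% of the calls there, and 451 (68.4%) in spermatids, 55.6% of the calls there. Opposite calls were made for 60 raised and 43 lowered genes in prepachytene cells and for 10 and 3 genes in spermatids. The strain differences in pachytene correlated with those in spermatids at r = 0.808 and with those in prepachytene cells at r = 0.47 across genes, which are not independent replicates, and the populations may share animals.

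**Figure D4:**
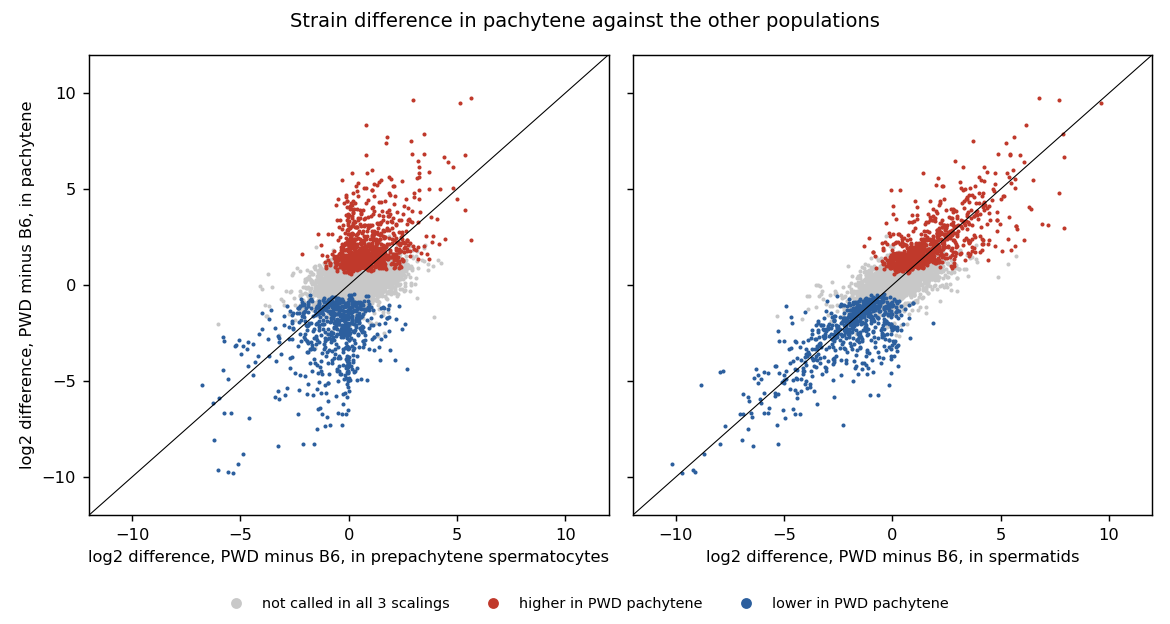
Log2 difference of PWD minus B6 in pachytene (vertical axes) against that in prepachytene cells and in spermatids (horizontal axes), 1 point for each of 8259 genes by its brightest probeset, red and blue where called in 3 scalings. Points follow the diagonal line of equal difference more closely for spermatids (r = 0.808) than for prepachytene cells (r = 0.47).

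The strain difference in pachytene was also tested against the mean of those in the other populations. A gene can pass this contrast through prepachytene cells alone, so passing does not make its difference largest in pachytene. *Scarb2* passed at 2.09, with differences of 9.46 in pachytene, 5.13 in prepachytene cells and 9.62 in spermatids. By this limma contrast 377 genes were higher (4.56%) and 285 lower (3.45%). Of the genes higher in pachytene 289 of 1953 (14.8%) passed in the same direction, and of those lower 230 of 659 (34.9%).

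*Rsad1*, a radical SAM domain gene, read 7.64 and 8.01 in PWD and 2.99 and 2.76 in B6. Its strain difference was 4.95 in pachytene, 1.06 in prepachytene cells and -0.05 in spermatids, the last 2 not called. *Ccr7*, a chemokine receptor, differed by 5.83, 0.16 and 1.42 in the same order, and *Trim6*, a ubiquitin ligase, by 4.95, 1.09 and 0.33. Among lowered genes, *Ddx58* differed by -4.59 in pachytene, -0.05 in prepachytene cells and -0.06 in spermatids, and the contrast was -4.53 (limma, adjusted p = 2.1e-07). The limit on its spread given above applies here too. *Egflam*, which encodes the matrix protein pikachurin, differed by -7.31, -0.29 and -5.32. *Tekt5* differed by -7.28, -0.88 and -2.30, and on PWD arrays it read 7.32 and 7.40 in spermatids against 3.02 and 2.62 in pachytene. The 2 probesets of *Dapp1* gave different patterns: one differed by -6.38, 0.26 and -0.19, the other by -7.51, -1.48 and -6.69. In spermatids *Rsad1* read 2.80 to 3.23 and *Trim6* 1.99 to 2.41, below the background level in both strains. The same held in prepachytene cells for *Ccr7*, at 2.37 to 2.55, and *Egflam*, at 2.79 to 3.34. It also held for *Ccr7* in spermatids and for the first *Dapp1* probeset in both other populations. A small difference between such readings does not show equal expression.

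Other differences were shared with the neighbouring stages. At its most raised probeset *Pdxdc1* differed by 10.41 in pachytene, 10.94 in prepachytene cells and 10.33 in spermatids. *Rpn1* differed by -11.39, -11.16 and -10.73 at its most lowered probeset, and both probesets were called in all 3 populations. Some other probesets of both genes did not follow these readings in pachytene, as given above. *Mybl1* differed by 2.67, 1.36 and 2.49, called in all 3, and *Psmc3ip* by -3.01, -1.87 and -3.36, also called in all 3. *Hormad1* differed by 1.60, 0.18 and 2.48, called in pachytene and spermatids. *Tdrd5* differed by 2.11, 0.38 and 4.18, and *Meiob* by 2.08, -0.22 and 2.07, called in the same 2 populations. *Aurkc* was lower in PWD throughout, by 1.48, 3.98 and 2.82, and was the gene of these whose contrast was called, at 1.92 (limma, adjusted p = 0.00608), since its difference was smallest in pachytene.

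**Figure D5:**
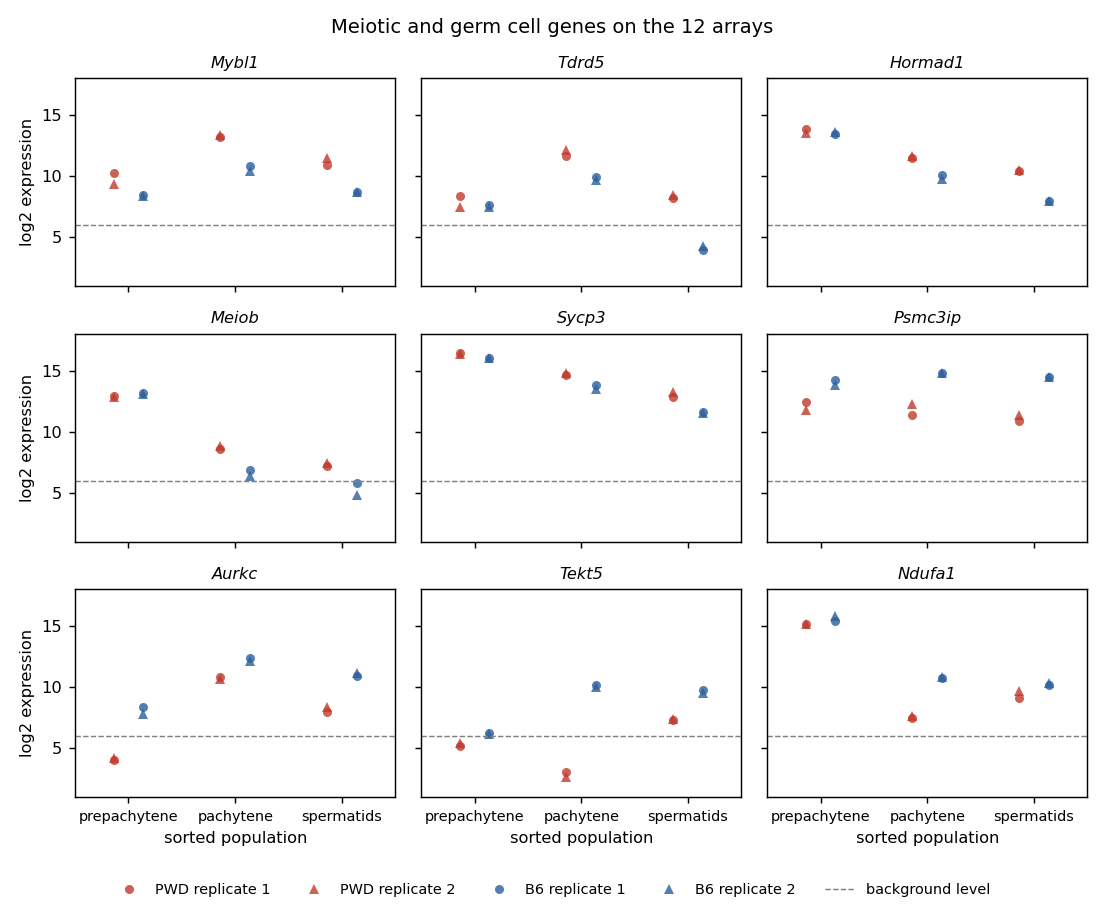
Log2 expression (vertical axes) of 9 named genes on all 12 arrays by sorted population, PWD in red and B6 in blue, circles for replicate 1 and triangles for replicate 2, with the background level dashed. In pachytene the PWD pair stands above the B6 pair in 5 genes (*Mybl1*, *Tdrd5*, *Hormad1*, *Meiob* and *Sycp3*) and below it in 4 (*Psmc3ip*, *Aurkc*, *Tekt5* and *Ndufa1*).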

How the data were processed

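The authors deposited log2 expression values of an Affymetrix whole-genome mouse array, for which the submitters' processing notes name GCRMA. This method takes the probes' base content into account for the background, equalizes the distributions of the arrays and combines the probes of a set, so PWD values can be lowered where the PWD sequence differs from a probe, and a shift in RNA content can move many. The GCRMA version is not given in the sources used here. Hybridization, as the study's methods describe it, used the same array, whereas their normalization step names RMA for another array type, and the RNA kit differs from that of the labels. The labels are followed here.

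The 12 arrays in 6 groups were taken from the labels. From the deposited values, all but 64 control probesets, 45037 in number, were fitted in R 4.3.3 by limma 3.58.1. The fit had 1 mean per group, a spread pooled over the 12 arrays and a mean-dependent variance prior, and p-values were adjusted by Benjamini-Hochberg over all probesets at 0.05. The contrasts were PWD minus B6 in each population, and pachytene minus the mean of the other populations. Duplicates came from 2 animals, so p-values measure the spread between few samples and the number of arrays limits the precision. Gene names came from the platform annotation, updated by the RefSeq table of GRCm38. Of the probesets, 34945 named 1 gene, 932 several and 9160 none, and 204 of the first were not found in RefSeq. A gene was its brightest probeset over the 12 arrays (18193 genes). The background level was set at the 95th percentile of mean levels among 57 probesets that belong to genes of other organs. Where 1 strain lay below it, the fold is the bright mean over that level.

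Named genes were the 12 highest and 12 lowest differences, up to 4 called genes of each list (or the 2 with the smallest p where none was called), the 6 highest and 6 lowest contrasts between populations, 4 X-linked genes, *Nnt* and *Prdm9*. The top differences and contrasts needed a call, 1 gene name, a mean above the background level and no overlap between the 2 strains, with each gene once. Other list members named for a complete account were chosen after their values were seen, and so was the promoter search. The comparison and the gene lists were chosen with earlier results of these data known. Multicopy sex-linked genes had 0 of 6 measured.

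Alternatives were quantile normalization again, centring on bright probesets, array weights, a fit to the 4 pachytene arrays, no mean trend, only bright probesets, gene means, a replicate block, a threshold of 0.01, and leaving out each array. The fit was tested on simulated data. Plots were drawn with matplotlib 3.10.9, and tables were made with numpy 2.4.6 and pandas 2.3.3 under Python 3.11.15.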

Additional observations from a re-analysis of the deposited data

Results flagged for a closer look

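For the genes below, the strain difference in pachytene differed from the mean of the differences in prepachytene cells and spermatids (limma interaction contrast, adjusted p under 0.05). Values are log2. Among the raised genes the contrast was 3.54 for *Stac*, 4.32 for *Tpm4*, 2.09 for *Scarb2*, 2.87 for *Hebp2*, 4.83 for *Erbb3*, 4.01 for *Ppm1m*, 3.17 for *Bdh1*, 4.19 for *Msrb2*, 3.88 for *Kcnab1* and 2.41 for *Ano4*. It was 5.03 for *Ccr7*, 4.44 for *Rsad1* and 4.24 for *Trim6*.

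Among the lowered genes it was -5.39 for *Grtp1*, -2.28 for *Galntl6*, -2.40 for *1700006J14Rik*, -1.99 for *Ttc30a2*, -1.65 for *1700029F12Rik*, -2.02 for *4933432K03Rik*, -3.53 for *Hoxb5os*, -4.87 for *Niban1*, -3.24 for *1700017G19Rik* and -1.52 for *Caps2*. It was -5.69 for *Tekt5*, -4.53 for *Ddx58* and -4.51 for *Egflam*. *Dapp1* gave -3.42 at one probeset and -6.41 at the other. Where a strain was below the background level in a population, its difference there is compressed, which lessens the contrast where that population is pachytene and can enlarge it where it is another.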

How the results depend on the processing

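Counts over all probesets were 3890 higher, 1886 lower and 3124 with a contrast between populations, and 2033 and 2612 pachytene calls were made in the same direction in prepachytene cells and spermatids. With the 4 pachytene arrays alone they were 1567 higher and 1110 lower. Array weights gave 8842 higher and 6992 contrasts. Centring gave 2381 higher, 8680 lower and 4700 shared with prepachytene cells; it moved the median of all probesets to -0.27. Quantile normalization again gave 2206 higher. Testing bright probesets only, which leaves fewer probesets, gave 1140 lower and 821 contrasts. At a threshold of 0.01 the counts were 1631 higher, 1177 lower, 1091 contrasts, and 877 and 1405 shared. Leaving out 1 array gave 1536 to 4562 higher, 1551 to 2021 lower, 1617 to 9165 contrasts, 1163 to 2101 shared with prepachytene cells and 1715 to 2824 shared with spermatids. Without B6 pachytene replicate 2 there were 1536 higher, 1617 contrasts and 1163 and 1715 shared, without B6 pachytene replicate 1 there were 2366 higher and 1902 contrasts, and without PWD pachytene replicate 2 there were 2594 higher. Contrasts numbered 9165 without PWD prepachytene replicate 1 and 5838 without B6 prepachytene replicate 1. The cause of these shifts was not tested.

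Replicate numbers did not pair the strains (r = 0.113 between the deviations of the pachytene groups). Within PWD, the deviations in pachytene correlated at r = -0.298 with prepachytene cells and -0.216 with spermatids. Within B6 these values were -0.0503 and 0.0973. The labels do not tie arrays to animals, so the fit treats the populations of a strain as independent although they may share animals. The replicate block gave 3152 higher, 1739 lower and 2174 contrasts, with 1768 and 2346 shared. Of 93 named probesets 86 were called, and over the alternatives 1613 values kept their direction and side of the threshold, 209 lost the call, 9 gained it and 1 reversed (*Irf7*, below the background level, from 0.23 to -0.11 after centring). The fit to the 4 pachytene arrays alone lost 33 calls, among them *Sycp3*, *Tdrd1*, *Cbx1*, *Cdc25c* and *Rpa1*.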
